A study of Mus musculus with 2 samples.

Results

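The interferon regulatory factors (IRFs) and the signal transducers and activators of transcription (STATs) are the transcription factors through which cells answer interferons and many cytokines. Of this group, 9 genes were followed here by their gene symbols, namely Irf1, Irf2, Irf3, Irf5, Irf7, Irf9, Stat2, Stat5a and Stat6. They make 9 of the 44291 genes in the expression tables. The cells were primary fibro-adipogenic progenitors (FAPs), the mesenchymal progenitors of skeletal muscle that can form adipocytes, and were of wild-type genotype. A culture was given platelet-rich plasma (PRP) and another was given vehicle as control. Both were then kept in DMEM with FBS at 20% to which an adipogenic mixture had been added, with insulin at 10 μg/ml, dexamethasone at 0.25 μM and IBMX at 0.5 mM. The labels name the agent as PRP, while the text of the study describes exosomes prepared from the PRP of young human donors, so mouse cells met human material in either case. Neither the number, sex and age of the mice behind a library nor the day of harvest is given in the labels.

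Each group has 1 library, so every difference described here is a difference between 2 libraries with no replicate check. The depth, recovered from the FPKM values as the total by which they were scaled, was 40120843 reads after PRP and 34139741 in control. Whether this total holds reads on genes only or all mapped reads is not known. Levels are given in FPKM, which is corrected for gene length, so genes can be compared within a library. A filter kept the 13401 genes whose FPKM averaged 1 or more over the 2 libraries, and all 9 IRF and STAT genes passed it. The log2 fold change compares FPKM + 1 after PRP with FPKM + 1 in control, which understates the change of genes with low levels. Ratios are PRP FPKM over control FPKM without a pseudocount, with a 95% interval that covers counting error only. Mitochondrial genes made up 2.06% of all FPKM after PRP and 3.70% in control. In bulk RNA, fewer cells of a type and less RNA per cell cannot be told apart.

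In the textbook pathway, type I interferons bind the receptor pair IFNAR1 and IFNAR2 and activate the kinases JAK1 and TYK2. STAT2 is then phosphorylated and joins IRF9 in the complex ISGF3, which binds the interferon-stimulated response element (ISRE) of antiviral genes. Interferon gamma acts through gamma-activated sites (GAS) in its target genes, and Irf1 is a classical gene of that kind. IRF3, IRF5 and IRF7 are switched on by kinases below nucleic acid sensors and Toll-like receptors and drive interferon genes, whereas IRF2 competes with IRF1 for its sites. STAT5A transmits growth hormone, prolactin and other cytokine signals, and STAT6 transmits IL-4 and IL-13.

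Irf7, Irf1, Stat2 and Irf9 were higher in the PRP library, in that order of fold change, and the other 5 genes differed little. Irf7 and Irf1 were at least 2-fold higher, which makes 2 of 9 genes, against 2.00% of all tested genes. None was at least 2-fold lower, against 0.828% of all tested genes, and none was at least 4-fold changed in either direction, against 0.194%. By direction alone, 7 genes were higher and 2 (Irf3 and Irf5) were lower. The median log2 fold change of the 9 genes was 0.18, and that of all tested genes was 0.01. The counting interval of the ratio lay above 1 for 6 genes, below 1 for none and included 1 for Irf3, Irf5 and Stat5a, while 26.1% of the tested genes with whole reads had an interval above 1, 26.1% one below 1 and 47.8% one that included 1.

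**Figure D1:**
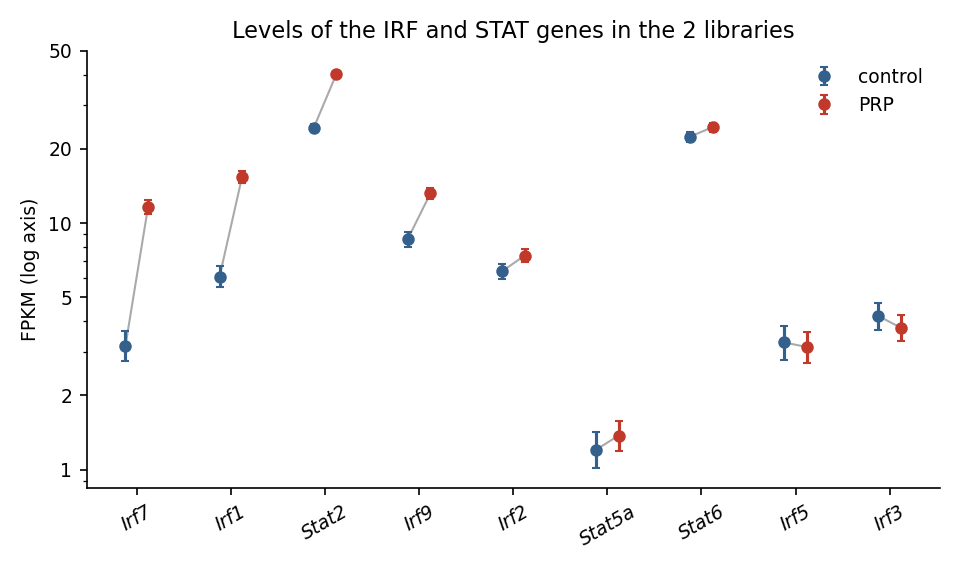
FPKM (log axis) of the 9 IRF and STAT genes in the control library (blue) and the PRP library (red), with bars for the 95% counting interval of each level. Irf7, Irf1, Stat2 and Irf9 on the left are higher in the PRP library with intervals that do not overlap, whereas the intervals of Stat5a, Irf5 and Irf3 overlap widely.

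The 9 genes spanned a wide range of levels. Stat2 had the highest level in both libraries and Stat5a the lowest, with a range from 1.20 to 24.3 FPKM in control and from 1.37 to 40.1 FPKM after PRP. Stat6 ranked 2 of 9 in both. Irf7 ranked 8 of 9 in the control library and 5 of 9 in the PRP library, and Irf1 ranked 5 and 3. Among neighbours in the order of control levels, the counting intervals overlapped for Stat2 and Stat6, Irf2 and Irf1, Irf3 and Irf5, and Irf5 and Irf7. Such an overlap is not a test of the difference between 2 genes, which was not made within a library. In the PRP library the intervals of neighbours overlapped for Irf3 and Irf5 alone.

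Promoter windows from RefSeq (GRCm38.p6), from 250 bases before to 50 bases after an annotated transcription start, were found for all 9 genes. Stretches before the start are shown for the gene with the largest fold change, and for the 3 genes with a match before the start to ISRE or STAT letters, so that the genes that differed can be read beside one that did not reach 1.5-fold (Irf2). Capitals mark matches to GAAA repeated after any 2 bases (the ISRE core), to TTC and GAA with any 3 bases between them (GAS, TTCNNNGAA) and to TTC and GAA with any 4 bases between them (the wider spacing that STAT6 prefers), each searched on both strands, and each line reads 5′ to 3′ along the gene's strand.
Irf7, chr7:141266425-141266524, minus strand: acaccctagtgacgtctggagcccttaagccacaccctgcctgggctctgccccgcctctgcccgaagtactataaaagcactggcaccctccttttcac
Irf1, chr11:53769889-53769967, plus strand: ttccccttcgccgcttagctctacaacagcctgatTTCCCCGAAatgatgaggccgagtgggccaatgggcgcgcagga
Stat2, chr10:128270248-128270332, plus strand: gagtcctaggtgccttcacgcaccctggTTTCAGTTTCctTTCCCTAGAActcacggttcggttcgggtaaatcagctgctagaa
Irf2, chr8:46739495-46739564, plus strand: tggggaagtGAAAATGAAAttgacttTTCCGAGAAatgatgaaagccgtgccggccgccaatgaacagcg

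The Irf1 stretch holds TTCCCCGAA, which begins 90 bases before the start. The Stat2 stretch holds the reverse complement of an ISRE core, TTTCAGTTTC, at 222 bases before the start, followed by TTCCCTAGAA at 210 bases. Irf2 carries both GAAAATGAAA at 241 bases and TTCCGAGAA at 224 bases. The ISRE core occurred in the windows of 3.99% of 27025 genes and GAS letters in 9.55%, and each was found in 2 of the 9 genes. The wider spacing occurred in 8.01% of genes and in Stat2 and Irf9, where it lies just after the start. The shorter letters AANNGAAA, which are part of the ISRE core, were found in Irf2, Stat2 and Stat6 and in 26.7% of genes. The windows of Irf3, Irf5, Irf7 and Stat5a held none of these letters, which says only that the letters are not in these windows. A match describes the letters of a window and not the binding of a factor.

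Stat2 and Irf9 encode subunits of ISGF3. Stat2 (ENSMUSG00000040033, chromosome 10, 128270559 to 128292849, plus strand) had 40.1 FPKM after PRP and 24.3 FPKM in control, from 9535 and 4921 reads. The ratio was 1.65 (95% interval 1.57 to 1.73) and the log2 fold change 0.70. Stat2 was thus clearly higher in the PRP library relative to counting error, but below the 2-fold threshold, and 560 of the 13401 tested genes (4.18%) had a higher log2 fold change. With Irf7 and Irf1 it was among the 3 of 9 genes at least 1.5-fold higher on the log2 scale, against 6.15% of all tested genes.

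Irf9 (ENSMUSG00000002325, chromosome 14, 55603571 to 55610030, plus strand) had 13.2 FPKM after PRP and 8.61 FPKM in control, from 2849 and 1584 reads. The ratio was 1.53 (1.40 to 1.67) and the log2 fold change 0.56. The difference was of the same order as that of Stat2, and the odds ratio of read pairs between the 2 genes, which does not depend on how a library is scaled, was 1.08 (0.974 to 1.19). The neighbouring gene Rnf31, which encodes a subunit of the linear ubiquitin ligase complex and lies on the same strand, shares 2.28% of the exon bases of Irf9 and had a ratio of 1.46 (1.24 to 1.72).

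Irf1 and Irf2 encode factors that bind the same letters with opposite effects on many promoters. Irf1 (ENSMUSG00000018899, chromosome 11, 53770014 to 53778374, plus strand) had 15.4 FPKM after PRP and 6.06 FPKM in control, from 2462 and 823 reads. The ratio was 2.55 (2.27 to 2.85) and the log2 fold change 1.22, and 154 tested genes (1.15%) had a higher one. With a pseudocount of 5 the log2 fold change of Irf1 was 0.89, short of 2-fold. The opposite strand gene Gm17334 shares 3.40% of the exon bases of Irf1 and had 4.93 FPKM in the PRP library against 2.03 FPKM in the control library, and as the library kit was stranded but the strand setting of the counting is not known, reads of the shared bases cannot be assigned.

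Irf2 (ENSMUSG00000031627, chromosome 8, 46739732 to 46847458, plus strand) had 7.37 FPKM after PRP and 6.37 FPKM in control, from 2187 and 1608 reads. The ratio was 1.16 (1.06 to 1.27) and the log2 fold change 0.18, so that the gene differed little. Irf1 and Irf2 were close to each other in the control library, at 6.06 and 6.37 FPKM. In the PRP library Irf1 stood well above Irf2, and the odds ratio between the 2 genes was 2.20 (1.90 to 2.55).

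Irf3, Irf5 and Irf7 encode the factors that are activated below innate sensors. Irf7 (ENSMUSG00000025498, chromosome 7, 141262706 to 141266481, minus strand), which is known both as an inducer of interferon alpha genes and as an interferon-stimulated gene itself, had 11.6 FPKM after PRP and 3.18 FPKM in control, from 1758 and 410 reads. The ratio was 3.65 (3.13 to 4.27) and the log2 fold change 1.59. This was the largest difference of the 9 genes, with 70 tested genes (0.522%) above it. Among the 4962 tested genes with a mean level within 2-fold of that of Irf7, 19 (0.383%) had a higher log2 fold change.

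Irf3 (ENSMUSG00000003184, chromosome 7, 44997648 to 45002848, plus strand), a factor that most cells hold ready without induction, had 3.76 FPKM after PRP and 4.195 FPKM in control, from 519 and 493 reads. The ratio of 0.896 (0.750 to 1.07) was within counting error. Irf5 (ENSMUSG00000029771, chromosome 6, 29526625 to 29541871, plus strand), which acts below Toll-like receptors, had 3.14 FPKM after PRP and 3.28 FPKM in control, from 366 and 325 reads. Its ratio of 0.958 (0.772 to 1.19) was within counting error as well. Irf5 shares 14.1% of its exon bases with Tnpo3 on the other strand, the largest such share among the 9 genes, and Tnpo3 had a ratio of 0.891 (0.815 to 0.975).

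The 3 genes of this group were close in FPKM in the control library, between 3.18 and 4.195, and far apart in the PRP library. The odds ratio of Irf7 was 4.07 (3.21 to 5.17) against Irf3 and 3.79 (2.90 to 4.96) against Irf5. Between Irf5 and Irf3 it was 1.07 (0.808 to 1.42), which includes no difference.

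Stat5a and Stat6 encode factors of other cytokines. Stat6 (ENSMUSG00000002147, chromosome 10, 127642986 to 127660957, plus strand) was abundant in both libraries, with 24.5 FPKM after PRP and 22.4 FPKM in control, from 4329 and 3368 reads. The ratio was 1.09 (1.03 to 1.17), a difference above counting error but small. Stat5a (ENSMUSG00000004043, chromosome 11, 100859351 to 100885169, plus strand) had 1.37 FPKM after PRP and 1.20 FPKM in control, from 393 and 293 reads, and a ratio of 1.14 (0.917 to 1.42) that was within counting error. Its close paralog Stat5b, with which it can share reads, had 4.87 and 4.26 FPKM and the same ratio of 1.14 (1.003 to 1.30). Stat3 on the other side of Stat5a, the main factor of the IL-6 family, was lower in the PRP library, with 13.4 against 15.8 FPKM (ratio 0.848, 0.802 to 0.896).

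**Figure D2:**
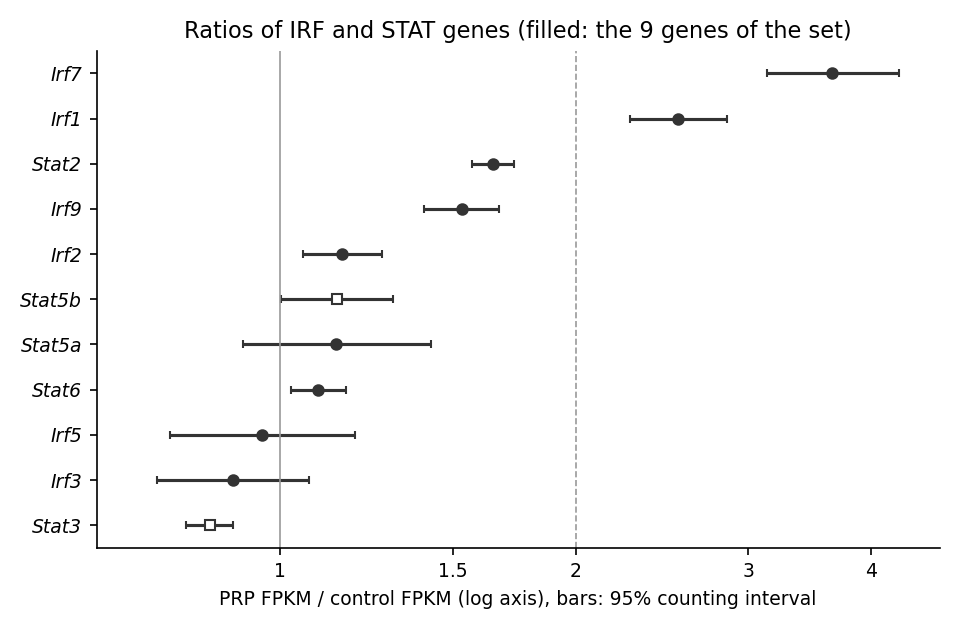
Ratio of PRP FPKM to control FPKM (log axis) for the 9 genes (filled circles) and for Stat3 and Stat5b (open squares), with 95% counting intervals, a solid line at 1 and a dashed line at 2. Irf7 (3.65) and Irf1 (2.55) lie beyond 2, Stat2 (1.65) and Irf9 (1.53) lie between, and the other genes lie within 0.848 and 1.16.

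Across the 36 pairs of the 9 genes, the odds ratio of read pairs excluded 1 for 27 pairs and included it for 9, with intervals not adjusted for their number. The same share over pairs of all tested genes was not computed. By the interval of the ratio of a single gene, only 47.8% of the tested genes with whole reads included 1. The count of pairs therefore cannot be called particular to these genes. Along the order of ratios, Irf7 differed from Irf1 by 1.43-fold (1.18 to 1.74), Irf1 from Stat2 by 1.55-fold (1.37 to 1.75), and Irf9 from Irf2 by 1.32-fold (1.16 to 1.503). The other 5 neighbours in the order did not differ beyond counting error, which left Stat2 with Irf9 as a middle pair on read pairs, though not on single reads (1.08, 1.003 to 1.16), and Irf2, Stat5a, Stat6, Irf5 and Irf3 as a run in which each gene was within counting error of the next. The run is not a uniform group, as Irf3 differed from Irf2 (odds ratio of Irf2 to Irf3 1.29, 1.06 to 1.58) and from Stat6 (Stat6 to Irf3 1.22, 1.009 to 1.48). Its other pairs included 1.

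The 6 IRF genes summed to 31.7 FPKM in the control library and 54.5 FPKM in the PRP library, a ratio of 1.72. Irf9 held the largest share in the control library with 27.2%, and Irf1 in the PRP library with 28.3%, up from 19.1%. The share of Irf7 was 10.0% in the control library and 21.3% in the PRP library, while Irf2 went from 20.1% to 13.5% and Irf3 from 13.2% to 6.90%. Stat2, Stat3, Stat5a, Stat5b and Stat6 summed to 67.98 FPKM in control and 84.2 FPKM after PRP, a ratio of 1.24. Of this sum Stat2 held 35.8% in the control library and 47.6% in the PRP library, and Stat3 held 23.2% and 15.9%. Such shares depend on one another, so a smaller share does not mean a lower level.

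**Figure D3:**
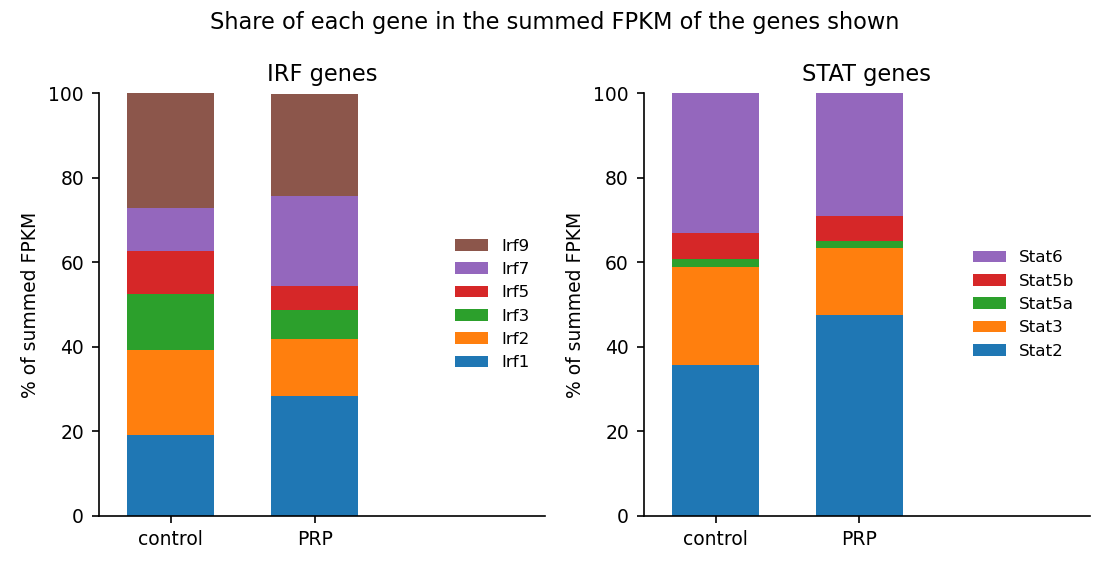
Percent of the summed FPKM held by each of the 6 IRF genes (left) and each of 5 STAT genes (right) in the control and PRP libraries. Irf1 and Irf7 together take a larger part of the PRP bar (28.3% and 21.3%) than of the control bar (19.1% and 10.0%), and among the STAT genes Stat2 does (47.6% against 35.8%).

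Irf8, Irf4 and Stat4, which are best known from immune cells, were near absent. Irf8, a factor of myeloid cells and dendritic cells, had 0.127 and 0.0747 FPKM, and Irf4, a factor of lymphocytes, had 0.0610 and 0.0239 FPKM in the PRP and control libraries. Stat4, which transmits IL-12 in lymphocytes, had 0 reads in both, where 3 read pairs would give 0.0386 FPKM after PRP and 0.0454 FPKM in control.

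**Figure D4:**
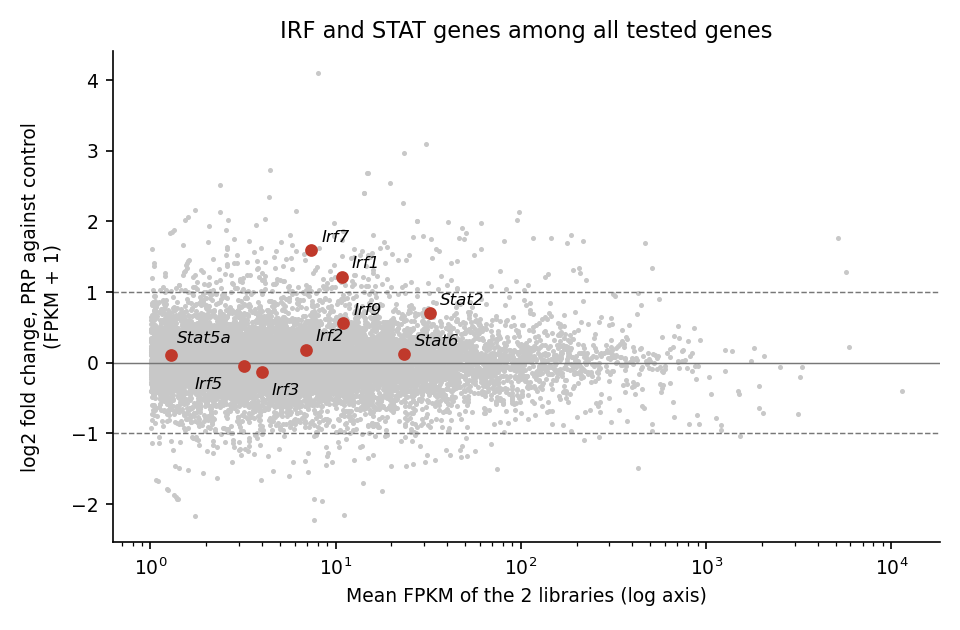
Log2 fold change (FPKM + 1) of all 13401 tested genes against their mean FPKM (log axis), with the 9 IRF and STAT genes in red and dashed lines at 2-fold. Irf7 (1.59) and Irf1 (1.22) lie above the upper line, Stat2 (0.70) and Irf9 (0.56) lie in the upper part of the cloud, and the other genes lie within it near 0.

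The genes upstream of the factors were examined next. Of the 12 ligand genes in the list for interferons, IL-4 and IL-13, 6 were found by their symbols and none had a mean FPKM of at least 1. Ifnb1, which encodes interferon beta, had 6 reads after PRP and 2 in control, too few for a ratio, and Ifng, which encodes interferon gamma, had 0 reads in both, where 3 read pairs would give 0.115 and 0.136 FPKM. Il4 had 14 reads after PRP and 6 in control, Il13 and Ifne each had 2 and 0, and Ifna4 had 0 in both. The ligand genes of the list that were not found by their symbols were not analysed here.

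Most receptor and Janus kinase genes were expressed, and they differed in both directions. Of 17 genes 14 were tested, with 6 higher, 8 lower and a median log2 fold change of -0.05, while Prlr, Il2rg and Ifnlr1 were below the filter. The counting interval of the ratio lay above 1 for 5 of the 14 genes and below 1 for 5. Among all tested genes with whole reads these shares were 26.1% and 26.1%. Jak1 was the most abundant kinase gene, with 57.6 FPKM after PRP and 60.6 FPKM in control, and Il6st, which encodes the shared receptor gp130, had 43.5 and 45.0 FPKM. Ifnar1 had 5.39 and 5.37 FPKM, a ratio of 1.003 (0.894 to 1.13), and Ifnar2 had a ratio of 1.15 (1.04 to 1.27). Jak2, the kinase of interferon gamma and growth hormone receptors, had 20.7 and 16.9 FPKM (ratio 1.23, 1.15 to 1.31). The single gene at least 2-fold higher, against 2.00% of all tested genes, was Il13ra2, which encodes a decoy receptor of IL-13. It had 1.98 against 0.462 FPKM (ratio 4.28, 2.56 to 7.54) and passed the filter only through the PRP library. The signaling IL-4 receptor gene Il4ra, in the pathway of STAT6, had 18.7 and 21.2 FPKM (ratio 0.882, 0.831 to 0.936).

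Among the kinases and adaptors that activate IRF3, IRF5 and IRF7, all 11 genes found were tested, with 5 higher, 6 lower and a median of -0.08. On the log2 scale of FPKM + 1 none reached 2-fold in either direction, against 2.00% of all tested genes higher and 0.828% lower, which for 11 genes is near the general share. Tbk1, the kinase of IRF3 and IRF7, had 21.7 and 21.4 FPKM (ratio 1.01, 0.945 to 1.09). Ticam1, which encodes the TLR3 adaptor TRIF, differed most, with 1.02 FPKM after PRP and 2.13 FPKM in control (ratio 0.476, 0.342 to 0.657), which is past 2-fold without the pseudocount and -0.64 on the log2 scale with it.

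Of 16 genes in the list of negative regulators of JAK-STAT signaling and IRF2 corepressors 12 were tested, with 6 higher, 6 lower and a median of -0.01. Usp18, an interferon-stimulated gene whose product blocks the receptor IFNAR2, was the only one at least 2-fold higher, against 2.00% of all tested genes. It had 28.4 against 7.96 FPKM (ratio 3.56, 3.18 to 3.996). The most abundant was the phosphatase gene Ptpn11 with 38.9 and 42.4 FPKM. Socs3, a feedback inhibitor of STAT3, had 5.62 and 4.88 FPKM (ratio 1.15, 0.971 to 1.37), and Socs1, the feedback inhibitor of interferon signaling, had 22 and 16 reads, below the filter.

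Genes downstream of ISGF3 were higher as a group. Of 20 genes in the list 17 were tested, all 17 were higher in the PRP library and 12 were at least 2-fold higher, against 2.00% of all tested genes. The median log2 fold change was 1.18, against 0.01 over all tested genes. Rsad2, Ifi44, Ddx60 and Oas2 had less than 1 FPKM in control and passed the filter only through the PRP library, so their place in these counts is no independent support. The largest log2 fold change of FPKM + 1 (2.14) was that of Mx2, which encodes an antiviral GTPase, with 10.6 FPKM after PRP and 1.64 FPKM in control (ratio 6.49, 5.27 to 8.07). Isg15, a ubiquitin-like modifier, had 160 against 35.7 FPKM (ratio 4.46, 4.02 to 4.96), and Ifit1, a sensor of viral RNA caps, had 25.3 against 6.53 FPKM (ratio 3.88, 3.42 to 4.42). Rsad2, which encodes viperin, and Ifi44 had ratios of 7.20 (4.89 to 11.0) and 6.44 (4.69 to 9.03) from low control levels of 0.392 and 0.421 FPKM. Members of the Ifit, Oas and Mx families resemble one another and can share reads. The smallest ratio was that of Ifit2 with 1.62 (1.52 to 1.73), close to those of Stat2 and Irf9.

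Of 20 genes known to respond to IRF1 and interferon gamma 15 were tested, with 14 higher, 1 lower, 5 at least 2-fold higher, against 2.00% of all tested genes, and a median of 0.67. The guanylate-binding protein genes Gbp3, Gbp2 and Gbp5 had the largest log2 fold changes of FPKM + 1, with Gbp3 at 92.5 against 29.7 FPKM (ratio 3.11, 2.95 to 3.29) and Gbp2 at 35.6 against 12.4 FPKM (ratio 2.88, 2.61 to 3.18), although these relatives can share reads. Gbp5 and the chemokine gene Cxcl9 were at low levels, with 2.73 against 0.406 FPKM (ratio 6.71) and 2.56 against 0.466 FPKM (ratio 5.50). Both passed the filter only through the PRP library. Gbp7, another guanylate-binding protein gene, had a ratio of 1.83 (1.62 to 2.08). Icam1, which encodes an adhesion molecule, had 15.7 against 6.80 FPKM (ratio 2.31, 2.08 to 2.56). B2m, the light chain of MHC class I, had a ratio of 1.31 (1.24 to 1.39), and Tap1, a peptide transporter, one of 1.96 (1.61 to 2.38). Vcam1 was the gene that was lower, with 5.21 against 7.15 FPKM.

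**Figure D5:**
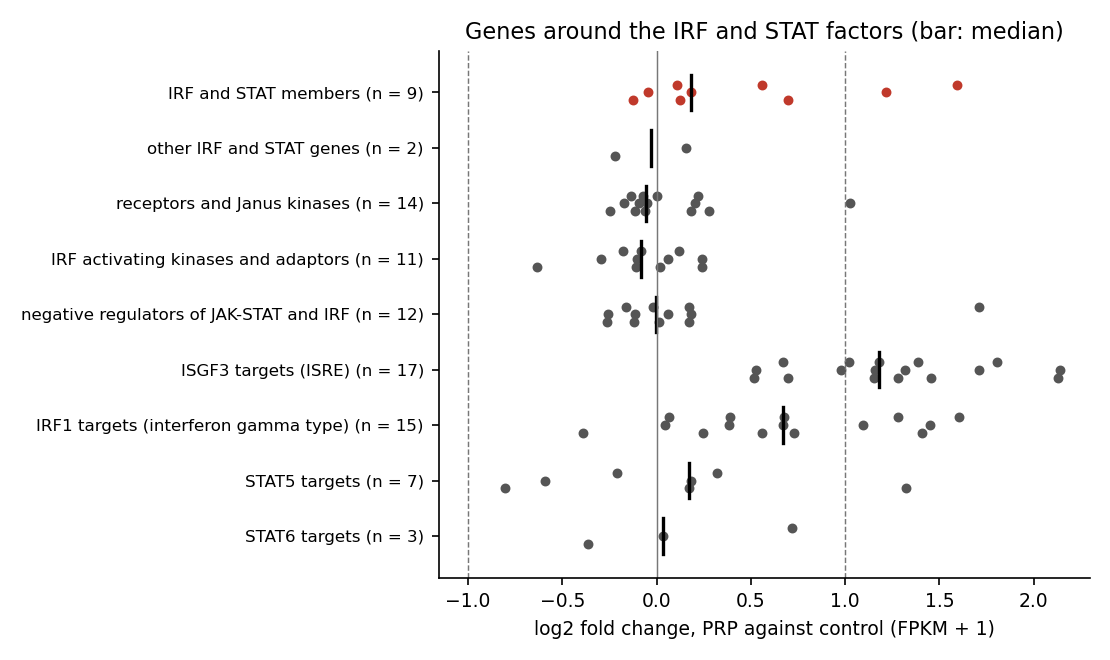
Log2 fold change (FPKM + 1) of each tested gene in the lists around the IRF and STAT factors, with a black bar for the median of each list and dashed lines at 2-fold. The ISGF3 targets (median 1.18) and the IRF1 targets (median 0.67) lie to the right, while receptors, kinases, adaptors and negative regulators lie around 0 except for Il13ra2 (1.03), Usp18 (1.71) and Ticam1 (-0.64).

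The lists of STAT5 and STAT6 targets moved in both directions. Of 7 tested STAT5 targets 4 were higher and 3 were lower, with a median of 0.17. The kinase gene Pim1 was higher, with 5.82 against 1.73 FPKM (ratio 3.37, 2.70 to 4.25), whereas the growth factor gene Igf1 was lower, with 2.54 against 5.17 FPKM (ratio 0.491, 0.439 to 0.548). Ccnd1, the most abundant gene of the list, was lower as well, with 28.6 against 43.7 FPKM (ratio 0.655, 0.623 to 0.689). Cish and Socs2, classical STAT5 targets, were below the filter in both libraries. Of 10 STAT6 targets 3 were tested, namely Klf4 (27.4 against 16.2 FPKM, ratio 1.69, 1.55 to 1.83), Cd36 (3.15 against 3.05 FPKM) and Ccl11 (3.27 against 4.49 FPKM, ratio 0.728, 0.523 to 1.01), and the other genes of the list, most of them macrophage genes, were below the filter.

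Markers of cell types were measured beside these values. Of 8 FAP markers 7 were tested and all 7 were lower in the PRP library, from Dcn at -0.13 to Dpt at -1.37 on the log2 scale. By direction alone, 6586 of the 13401 tested genes were lower. The counting interval lay below 1 for all 7, against 26.1% of the tested genes with whole reads. Dpt alone was at least 2-fold lower, against 0.828% of all tested genes. Col1a1, the most abundant, had 119 and 219 FPKM after PRP and in control. Pdgfra, the defining surface receptor of FAPs, had 19.8 and 28.0 FPKM, and Lum had 0.0815 and 0.0718 FPKM, so this marker was near absent. The 8 markers together had 256.4 FPKM after PRP and 431.4 FPKM in control. The 10 macrophage and monocyte markers summed to 11.3 and 11.2 FPKM, of which 2 were tested, Lyz2 (4.91 and 7.57 FPKM) and Cd68 (4.56 and 2.31 FPKM), while the leukocyte marker Ptprc had 8 and 12 reads. Of 10 lymphocyte and dendritic cell markers found none was tested, and their sum was 0.165 and 0.135 FPKM. Of 6 endothelial markers 2 were tested, Tek (4.73 and 3.56 FPKM) and Kdr (4.23 FPKM against 1.499 FPKM). Kdr was at least 2-fold higher, against 2.00% of all tested genes. Cdh5 was at 0.0949 and 0.0976 FPKM, Pecam1 at 0.188 and 0.0470 FPKM (47 and 10 reads), Vwf at 0.144 and 0.0839 FPKM and Tie1 at 0 and 0.0238 FPKM, and the list summed to 9.39 and 5.31 FPKM. Of the myogenic markers Des alone was tested, with 2.91 FPKM after PRP and 3.39 FPKM in control (ratio 0.859, 0.709 to 1.04), while Pax7 and Myog had 0 reads in both libraries. The platelet markers Ppbp and Gp9 had 0 reads in both libraries as well, and the platelet list summed to 1.56 and 1.40 FPKM, most of it from Gp1ba. Of 7 adipocyte markers 6 were tested, 4 higher and 2 lower. Lpl was the most abundant at 67.4 and 83.3 FPKM (ratio 0.810, 0.791 to 0.828). Fabp4 had 40.7 and 33.6 FPKM (ratio 1.21, 1.15 to 1.27) and Pparg had 8.69 and 6.55 FPKM (ratio 1.33, 1.15 to 1.53). The intervals of the other tested adipocyte markers included 1. The part of the FAP marker difference in the values of the IRF and STAT genes was not tested.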

How the data were processed

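RNA-seq was performed on 1 library of PRP-treated and 1 library of vehicle-treated FAPs. Per the labels and the methods of the study, reads were trimmed with fastp 0.23.4, mapped to mm10 with STAR 2.5.3a and counted with featureCounts. The authors deposited FPKM per gene, a count scaled by exon length and library depth. The library kit was stranded. How FPKM was computed, the annotation release and the strand setting of the counting are not given in the sources used here.

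The 9 genes and all lists were chosen with earlier results of these data known. Exon lengths and coordinates were taken from GENCODE M21 (GRCm38). With these lengths, 93.8% of 28160 genes above 0 gave whole reads in both libraries, within 0.001 reads. For Irf1 an exon length of 3975 bases, against 3976 in M21, gave whole reads. Even read numbers made up 79.3% and 80.3% of those from 1 to 8, so intervals were computed on reads divided by 2, as read pairs. They are exact Clopper-Pearson 95% intervals for the ratio of FPKM and exact conditional intervals for an odds ratio between genes, and they cover counting error only. No p-value was computed, as each group has 1 library.

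Genes were named by rule: all 9 genes, other IRF and STAT genes (some are not reported here), list genes past 2-fold (at most 6 a list) and the most abundant receptors, kinases, regulators and markers. Other genes were chosen with their values in view. Alternatives covered other pseudocounts (0.1 and 5), other filters (none, or a mean FPKM of at least 5), rescaling, centring, other fold thresholds and intervals on reads. Python 3.11.15, NumPy 2.4.6, pandas 2.3.3, SciPy 1.17.1 and matplotlib 3.10.9 were used, and the procedures were tested on simulated data.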

Additional observations from a re-analysis of the deposited data

How the results depend on the processing

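No paired analysis was possible because the groups hold 1 library apiece, and no library could be left out. Another pseudocount or filter cannot change the sign of a log2 fold change, whereas rescaling and centring can. After rescaling and centring all 9 genes kept their sign, among them Irf3, Irf5 and Stat5a, whose counting intervals include 1. Over all settings the log2 fold change ranged from 1.02 to 1.84 for Irf7, from 0.89 to 1.33 for Irf1, from 0.62 to 0.72 for Stat2 and from 0.42 to 0.61 for Irf9. The number of genes at least 2-fold changed was 1 with a pseudocount of 5, which left Irf7, and 0 at a 4-fold threshold, against 2. With a pseudocount of 5 the medians of the ISGF3 and IRF1 targets were 0.61 and 0.38, and without a filter that of the IRF1 targets was 0.47. At a mean FPKM of at least 5, which leaves fewer genes, the median of the IRF and STAT genes was 0.63, that of the other IRF and STAT genes was -0.22 (Stat3 alone) and that of the STAT6 targets was 0.72. Over all genes, 268 were at least 2-fold higher and 111 lower, against 471 and 268 with a pseudocount of 0.1, 84 and 29 with a pseudocount of 5, 380 and 216 after rescaling to a common sum, and 391 and 247 when that sum left out mitochondrial and the most abundant genes. The median of all tested genes lay between -0.02 and 0.01 under these alternatives. Intervals on single reads left 30 of the 36 pairs apart, against 27, with Stat2 and Irf9 among those added (1.08, 1.003 to 1.16). Depth limits genes with few reads, such as the ligand genes.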

Other observations

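The genes next to the IRF and STAT genes in the genome were compared as well. The nearest tested gene on either side of each of the 9 genes gave 18 neighbours, 10 of them higher after PRP and 8 lower, and their median log2 fold change was 0.02. None of them reached 2-fold in either direction on this scale, against 2.00% of all tested genes higher and 0.828% lower. For 18 genes this is near the general share. The nearest to 2-fold was Gm17334, which overlaps Irf1 on the other strand (log2 fold change 0.97). The neighbours of Irf7 had ratios near 1, with 1.01 (0.972 to 1.06) for Phrf1 and 1.13 (0.966 to 1.33) for Deaf1, and those of Stat2 had 0.952 (0.865 to 1.05) for Timeless and 1.31 (1.11 to 1.54) for Pan2. Lrp1, beside Stat6, was lower, with 62.8 FPKM after PRP against 90.9 FPKM in control (ratio 0.692, 0.679 to 0.704).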
